A study of Mus musculus with 19 samples.

Results

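ERVK is a class of endogenous retroviruses, the remains of retroviral insertions that are inherited with the genome and counted among the LTR retrotransposons. IAP and MMERVK10 are its best known mouse subfamilies. The elements described here are the ERVK subfamilies that remain when IAP, MMERVK10, RLTR10, ERVB4, ERVB7 and ETn entries are set aside by name. They number 120 of the 259 retrotransposon subfamilies listed for each library, and 54 other ERVK subfamilies were set aside. The rule uses names and the class field only, but it was set with earlier results of these data known. Shares over all tested subfamilies, given below, include entries that were set aside. Among the 120 are 22 RLTR13, 13 RLTR9, 11 RLTR31 or MLTR31, 7 RLTR20 and 6 RLTR44 entries, and 35 that belong to no named group.

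A complete element carries an internal region with retroviral genes between a pair of long terminal repeats (LTRs), and the LTR holds the promoter. Many insertions have recombined to a solo LTR. Repeat databases give LTRs and internal regions as separate consensus sequences, so that 1 element can appear as several entries. In male germ cells such elements are held down by DNA methylation and by H3K9me3. DNMT3L is a catalytically inactive partner of the *de novo* DNA methyltransferases and is required for their work in prospermatogonia. PLD6 is a mitochondrial protein needed to produce piRNAs, the small RNAs that guide methylation to retrotransposons.

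RNA was from EpCAM-positive spermatogonia sorted from mouse testes at postnatal day 7, where EpCAM is a surface protein of undifferentiated spermatogonia. The *Dnmt3l* line gave 2 wild-type (*Dnmt3l*+/+), 3 heterozygous (*Dnmt3l*+/-) and 3 KO (*Dnmt3l*-/-) libraries, and the *Pld6* line gave 3 wild-type (*Pld6*+/+), 3 heterozygous (*Pld6*+/-) and 5 KO (*Pld6*-/-) libraries. Both lines had been backcrossed to C57BL/6J, and each KO was set against the wild type of its own line. Heterozygotes serve as a second set of controls that carry 1 mutant allele. Values are RPM, reads scaled to the mapped total, and they are not divided by length, so an RPM is compared between libraries and not between subfamilies. The tables list retrotransposons only, so neither the loss of *Pld6* or *Dnmt3l* transcripts nor germ cell markers could be checked here. In sorted cell populations, fewer cells of a type and less RNA per cell cannot be told apart.

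Most of these subfamilies stayed below 1 RPM. Only 20 of 120 (16.7%) reached 1 RPM in at least 2 of the 19 libraries, whereas 44.0% of all 259 subfamilies and 39 of the 54 other ERVK subfamilies (72.2%) did. Since RPM is not divided by length, these shares do not compare RNA per base. At 0.5 RPM the number was 37, and at 2 RPM it was 12. The 20 hold 11 RLTR13 LTRs, RLTR20C1_MM, RLTR20C2_MM, RLTR44-int, RLTR45-int, SRV_MM-int, MMERVK9E_I, BGLII, RMER17A and RLTR22_Mus. RLTR13C2, RLTR20C1_MM, RLTR44-int and SRV_MM-int were at 1 RPM or more in every library. MMERVK9E_I was the single member that reached the minimum through 1 group only, the *Dnmt3l* KO, so it entered the test because it was high there.

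The other 100 subfamilies were not tested. They include all 13 RLTR9 and all 11 RLTR31 or MLTR31 entries, all 5 MLTR18 entries, all 7 entries of ERVB2, ERVB3 and ERVB5, and MMTV-int with its LTR RLTR3_Mm, the entries of mouse mammary tumour virus. A mean below 0.1 RPM was found for 62 of the 100, and 16 were listed at 0 in every library, where a weak signal may have been missed. The highest mean among the 100 was 0.581 RPM, and the median of their means was 0.0482 RPM. In any library they made up 11.2% to 19.2% of the summed RPM of the 120. RLTR9 and RLTR13D5 LTRs are known for regulatory activity in mouse embryonic and trophoblast stem cells, respectively. Their values here were low, with at most 0.37 RPM as the highest mean of an RLTR9 entry and at most 1.03 RPM in a single library for RLTR13D5.

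**Figure D1:**
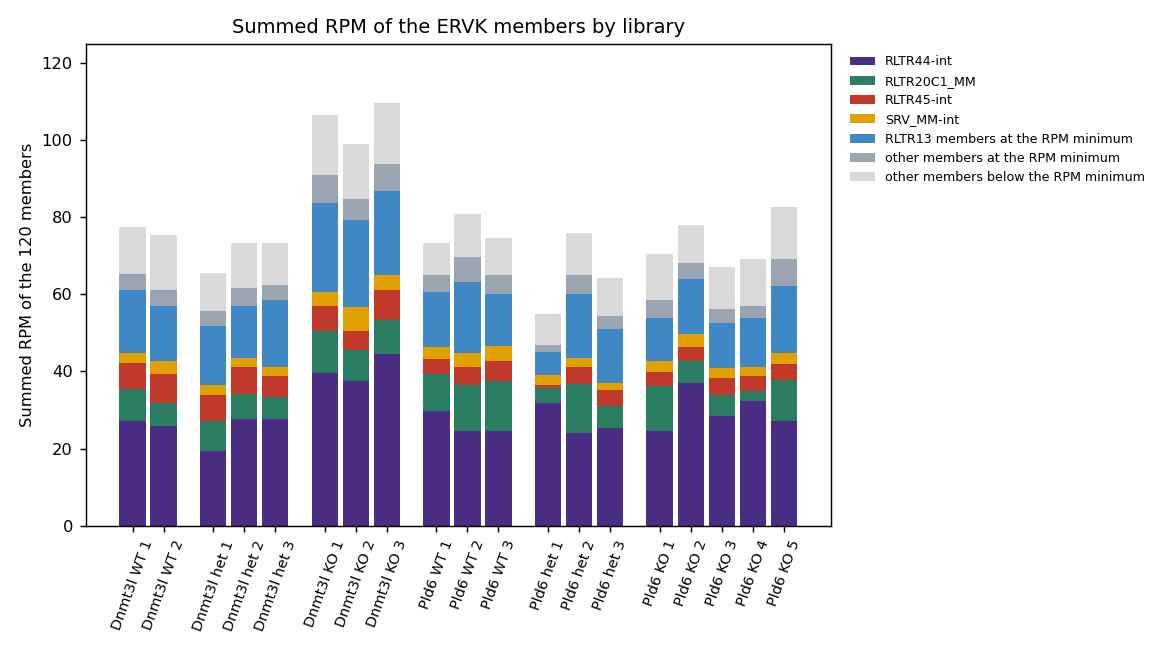
Summed RPM of the 120 subfamilies (vertical axis) in each of the 19 libraries (horizontal axis), stacked by entry or group of entries. The RPM minimum is 1 RPM in at least 2 libraries. The 3 *Dnmt3l* KO bars, between 99.0 and 110 RPM, stand above all other bars, and RLTR44-int is the lowest segment of each bar.

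The 120 subfamilies together gave 106.6, 99.0 and 110 RPM in the 3 *Dnmt3l* KO libraries, against 77.5 and 75.6 RPM in the wild type and 65.5 to 73.5 RPM in the heterozygotes. All KO libraries lay above all control libraries of the line. The means were 105 ± 5.53 RPM in KO (SD, n = 3) and 76.5 ± 1.34 RPM in the wild type (SD, n = 2), a log2 ratio of 0.46. In the *Pld6* line the sum ranged from 67.2 to 82.7 RPM in KO and from 73.3 to 80.8 RPM in the wild type, and these ranges overlap. The log2 ratio of the means was -0.052 there, from 73.5 ± 6.59 RPM (SD, n = 5) and 76.2 ± 4.05 RPM (SD, n = 3).

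As a share of all listed retrotransposon RPM, the same sums were smaller in both mutants, without overlap between KO and wild-type libraries. The share was 2.06% ± 0.248 in *Dnmt3l* wild type (SD, n = 2) and 0.789% ± 0.047 in KO (SD, n = 3). For *Pld6* it was 3.11% ± 0.287 in the wild type (SD, n = 3) and 0.956% ± 0.124 in KO (SD, n = 5). The listed total itself was higher, going from 3748 to 13347 RPM in the *Dnmt3l* line and from 2466 to 7736 RPM in the *Pld6* line as group means. The listed total was at most 1.46% of the mapped total to which RPM is scaled, in any library. Most reads behind RPM thus lay outside the listed subfamilies, and which reads make up that total is not given. The share and the median ratios, in contrast, are set by the listed subfamilies themselves. How far a member moved differed between these scales, and which scale is nearer to the RNA in the cells was not tested. With each library divided by its median ratio over 33 subfamilies, the median log2 fold change of all 114 tested subfamilies went from 0.50 to -0.017 in *Dnmt3l* KO and from 0.26 to -0.14 in *Pld6* KO, and the log2 ratios of the sums became -0.21 and -0.57.

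RLTR44-int, the internal region of the RLTR44 elements, took the largest share of the reads assigned to the 120, between 29.7% and 58.2% in a library. In *Dnmt3l* KO it was at 39.6, 37.4 and 44.5 RPM. The wild-type libraries were at 27.3 and 26.0 RPM and the heterozygotes at 19.4, 27.6 and 27.8 RPM, all below the lowest KO library. Its log2 fold change on the RPM + 1 scale was 0.59 (SE 0.20, adjusted p = 0.0262, limma with Benjamini-Hochberg adjustment over the 114 subfamilies), a fold of 1.505. On the median-ratio scale it was -0.063 with an adjusted p of 0.928, so the direction of RLTR44-int turned with the scaling.

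RLTR13A3, an LTR, was at 2.70, 2.17 and 2.71 RPM in *Dnmt3l* KO. Wild-type libraries were at 0.85 and 1.24 RPM, and heterozygotes at 1.26, 1.17 and 2.05 RPM, again without overlap. This gave a log2 fold change of 0.79 (SE 0.26, limma adjusted p = 0.0209), or 1.72-fold on the RPM + 1 scale, and the ratio of the RPM means without the added 1 was 2.42. RLTR13B2, a second LTR of the same group, was at 2.93, 3.05 and 3.20 RPM in KO, at 1.19 and 1.17 RPM in the wild type, and at 1.40, 1.34 and 1.11 RPM in the heterozygotes. The log2 fold change of RLTR13B2 was 0.90 (SE 0.31, limma adjusted p = 0.0266), or 1.86-fold on the RPM + 1 scale, against a ratio of the RPM means of 2.59. The added 1 understates the change of members at such low values. With a pseudocount of 0.1 the log2 fold changes were 1.21 for RLTR13A3 and 1.30 for RLTR13B2, where RLTR13B2 did not pass (adjusted p = 0.242).

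MMERVK9E_I is an internal region related by name to the MMERVK elements. It was at 1.35, 1.31 and 1.13 RPM in *Dnmt3l* KO, at 0.40 and 0.35 RPM in the wild type, and at 0.16, 0.45 and 0.84 RPM in the heterozygotes. Its log2 fold change was 0.72 (SE 0.25, limma adjusted p = 0.0266), or 1.65-fold on the RPM + 1 scale, against a ratio of the RPM means of 3.37. No other library reached 1 RPM for MMERVK9E_I, so its place among the tested subfamilies came from the KO group itself.

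**Figure D2:**
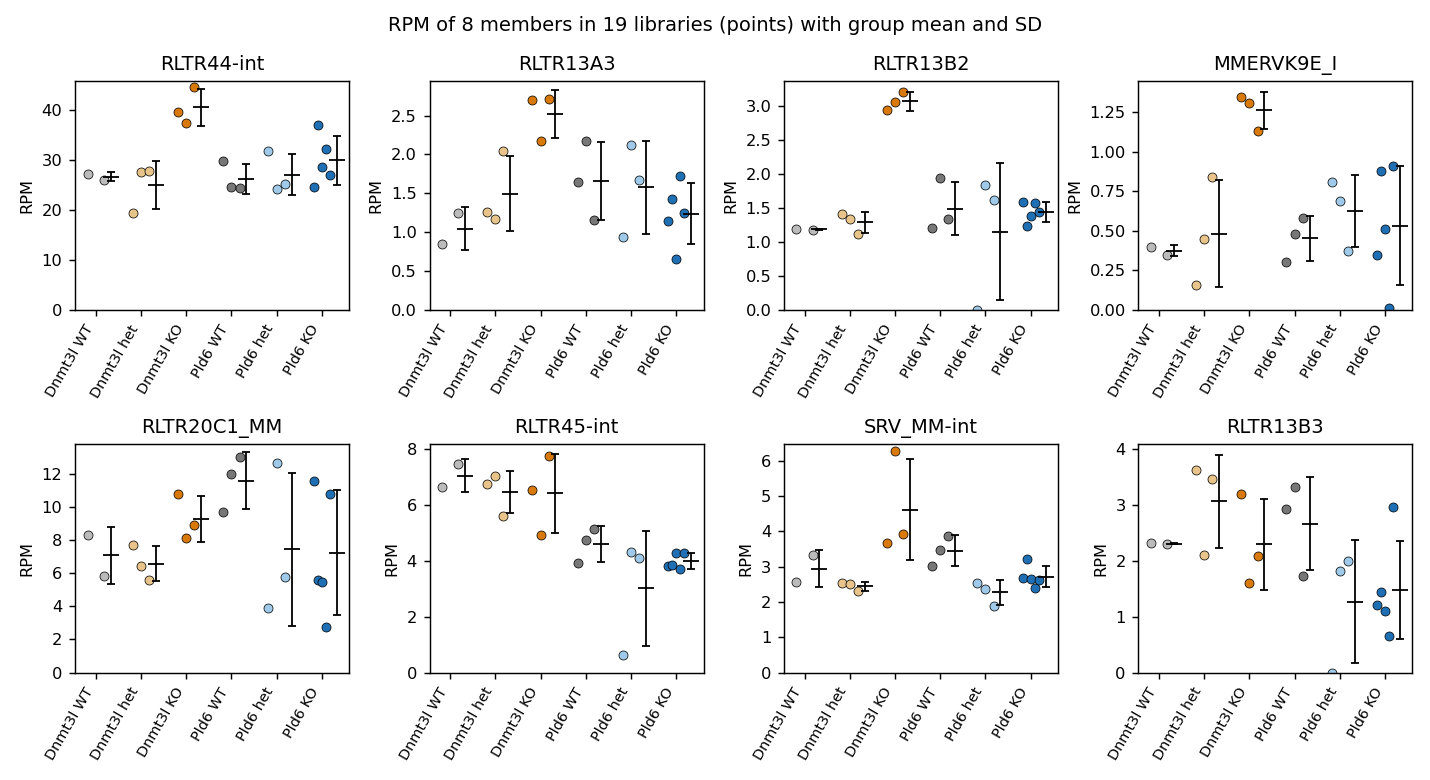
RPM (vertical axes, linear from 0) of 8 subfamilies in the 19 libraries, 1 point per library, by genotype group, with the group mean and SD beside the points. The *Dnmt3l* KO points of RLTR44-int, RLTR13A3, RLTR13B2 and MMERVK9E_I lie above the control points of that line (after rescaling by median ratios RLTR44-int has a log2 fold change of -0.063), while RLTR20C1_MM spreads from 2.76 to 11.6 RPM among the *Pld6* KO libraries.

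These 4 were the members that rose in *Dnmt3l* KO, against 38.6% (44 of 114) of all tested subfamilies. Without MMERVK9E_I, which entered the test through its KO values, 3 of 19 members rose (15.8%). No member was lower, against 1.75% of all. At an unadjusted p under 0.05 there were 5 of 20 members, against 45.6% of all. The median log2 fold change was 0.35 for the 20 members and 0.50 for all tested subfamilies. A positive log2 fold change was found for 17 of the 20. On the median-ratio scale 5 of 20 were positive, with a median of -0.11, and 0 members were higher, against 23.7% of all, and 0 were lower, against 7.89%. There 1 member had an unadjusted p under 0.05.

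With 2 wild-type libraries, these calls depended on single libraries. Where 1 wild-type library is left, it is assumed to vary like the other groups. Leaving out wild-type replicate 1 or KO replicate 1 left 0 members past the threshold. RLTR13A3 alone remained without wild-type replicate 2 (adjusted p = 0.0404), RLTR13A3 and RLTR44-int remained without KO replicate 2, and MMERVK9E_I alone remained without KO replicate 3 (adjusted p = 0.0447), all by limma. MMERVK9E_I entered the test only through its KO values, so its call here is no independent support. The share of all tested subfamilies past the threshold in these fits is not given here. The log2 fold changes themselves moved little, from 0.65 to 0.93 for RLTR13A3 and from 0.52 to 0.64 for RLTR44-int.

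Every *Dnmt3l* KO library lay above every wild-type library for 9 of 20 members, against 67.5% of all tested subfamilies. Besides the 4 above, these were RLTR13A, RLTR13A2, RLTR13C2, RLTR22_Mus and SRV_MM-int. With the heterozygotes counted as controls too, 7 members did so, against 59.6% of all. RLTR13D2 was the 1 of the 20 with every KO library below every wild-type library, against 7.89% of all. With heterozygotes there was none, against 6.14%. RLTR13D2 was at 0.683 ± 0.246 RPM in KO (SD, n = 3) and 1.25 ± 0.269 RPM in the wild type (SD, n = 2), a log2 fold change of -0.42 (SE 0.27, limma adjusted p = 0.226).

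SRV_MM-int, an internal region, came closest to the threshold among the others. It was at 3.66, 6.27 and 3.94 RPM in *Dnmt3l* KO and at 2.57 and 3.32 RPM in the wild type, with heterozygotes at 2.53, 2.50 and 2.30 RPM. Relative to the wild type it changed by 0.49 on the log2 scale (95% interval 0.028 to 0.95, limma adjusted p = 0.0847). Against the heterozygotes it was 0.68 (limma adjusted p = 0.00712). Without KO replicate 2, the highest library, the change from wild type was 0.29.

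After RLTR44-int the most reads were assigned to RLTR20C1_MM and RLTR45-int, and neither passed the threshold in *Dnmt3l* KO. RLTR45-int, the internal region that goes with the LTR RLTR45, was at 6.54, 4.93 and 7.76 RPM in KO, at 6.64 and 7.46 RPM in the wild type and at 6.76, 7.03 and 5.60 RPM in the heterozygotes. Its log2 fold change was -0.14, with a 95% interval from -0.88 to 0.61. RLTR20C1_MM, an LTR, was at 10.8, 8.11 and 8.91 RPM in KO, at 8.28 and 5.85 RPM in the wild type and at 7.67, 6.45 and 5.58 RPM in the heterozygotes. For RLTR20C1_MM the log2 fold change was 0.36, with a 95% interval from -0.55 to 1.26, so that a 2-fold increase was within the interval for RLTR20C1_MM and not for RLTR45-int.

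**Figure D3:**
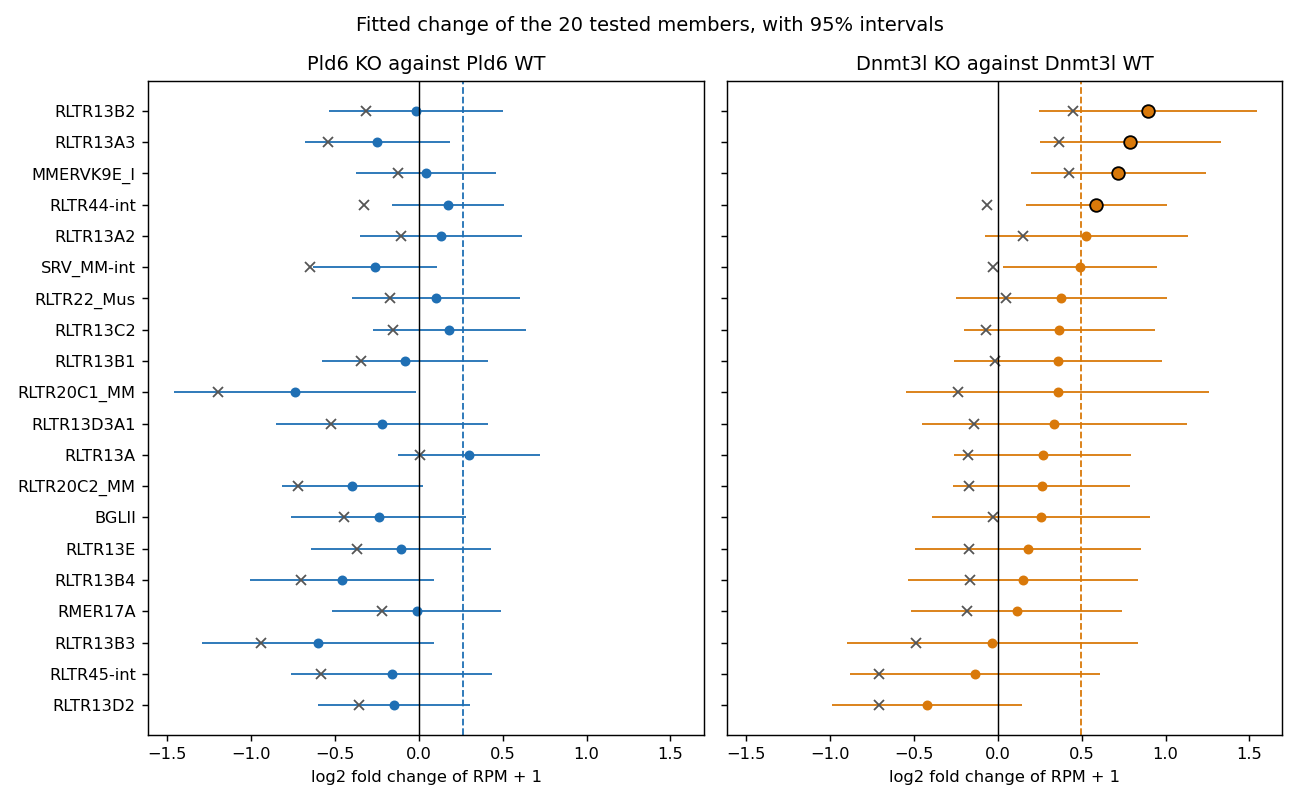
Log2 fold change of RPM + 1 (horizontal axes) of the 20 tested members in *Pld6* KO (left) and *Dnmt3l* KO (right), each against its wild type. Points are limma estimates with 95% intervals, large outlined points passed the threshold, crosses are estimates after rescaling by median ratios, and the dashed lines mark the median of all 114 tested subfamilies at 0.26 and 0.50. The 4 outlined points are all in *Dnmt3l* KO, and the cross of RLTR44-int there is at -0.063, left of 0.

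In *Pld6* KO none of the 20 members passed the threshold by limma. No member was higher, against 30.7% (35 of 114) of all tested subfamilies, and no member was lower, against 0.0% of all. At an unadjusted p under 0.05 there was 1 member, RLTR20C1_MM, against 38.6% of all. The median log2 fold change was -0.13 for the members and 0.26 for all tested subfamilies, and 14 of the 20 members were negative. For all 20 the upper limit of the 95% interval on the RPM + 1 scale stayed below 1, the highest being 0.72. The added 1 understates changes of low members. For some members near 1 RPM these limits do not exclude a log2 fold change of 1 in RPM itself. In none of the 20 tested members were all *Pld6* KO libraries above or below all wild-type libraries, against 35.1% and 0.877% of all tested subfamilies. The same held with heterozygotes added, against 31.6% and 0.0%.

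RLTR20C1_MM had the most negative value. It was at 11.6, 5.57, 5.46, 2.76 and 10.7 RPM in the 5 *Pld6* KO libraries and at 9.71, 11.99 and 13.03 RPM in the wild type. KO replicates 1 and 5 were within the wild-type range and the other 3 below it. The heterozygotes spread as widely, at 3.90, 12.7 and 5.75 RPM. The log2 fold change was -0.74 (SE 0.34, unadjusted p = 0.0457, limma adjusted p = 0.121). It passed without KO replicate 1, with a value of -0.93 and an adjusted p of 0.0467, and on the median-ratio scale, with -1.20 and 0.00417. Against the heterozygotes it was -0.035.

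The median-ratio factors were larger in every *Pld6* KO library than in its wild type, which lowers a member of equal RPM. After this rescaling 6 members were below the wild type in *Pld6* KO, against 14.0% of all tested subfamilies, and 0 above it, against 25.4%. In addition to RLTR20C1_MM these were RLTR13B3 (-0.94), RLTR20C2_MM (-0.72), RLTR13B4 (-0.70), SRV_MM-int (-0.65) and RLTR13A3 (-0.54), as log2 fold changes on that scale. On the RPM scale their values were -0.60, -0.40, -0.46, -0.26 and -0.25, and none passed.

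On the RPM scale, the members that rose in *Dnmt3l* KO were near their wild-type level in *Pld6* KO. RLTR44-int was at 24.6, 37.1, 28.6, 32.3 and 27.0 RPM in KO and at 29.7, 24.5 and 24.5 RPM in the wild type, a log2 fold change of 0.17 (95% interval -0.16 to 0.51). RLTR13A3 was at 1.14, 1.43, 0.65, 1.72 and 1.25 RPM in KO and at 1.64, 2.17 and 1.16 RPM in the wild type. RLTR13B2 was at 1.59, 1.23, 1.38, 1.57 and 1.43 RPM in KO and at 1.20, 1.93 and 1.33 RPM in the wild type. KO and wild-type libraries overlapped for all 3 of these members. The log2 fold change of RLTR13A3 was -0.25 (95% interval -0.68 to 0.18) and that of RLTR13B2 was -0.018 (95% interval -0.54 to 0.50). On the median-ratio scale RLTR13A3 was at -0.54 in *Pld6* KO and passed (limma adjusted p = 0.0408). RLTR44-int and RLTR13B2, at -0.33 and -0.32 there, did not pass.

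MMERVK9E_I varied from 0.01 to 0.91 RPM among the *Pld6* KO libraries, and its wild-type libraries were at 0.30, 0.48 and 0.58 RPM. On the log2 scale the change was 0.043 (95% interval -0.37 to 0.46). SRV_MM-int was at 2.68, 3.22, 2.66, 2.40 and 2.62 RPM in KO and at 3.02, 3.47 and 3.88 RPM in the wild type. RLTR45-int was at 3.81, 3.84, 4.29, 3.69 and 4.28 RPM in KO and at 3.91, 4.73 and 5.15 RPM in the wild type. Both groups overlapped for each of these internal regions, with log2 fold changes of -0.26 and -0.16.

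The difference between the mutants was tested as the change in *Dnmt3l* KO minus the change in *Pld6* KO. It asks whether losing *de novo* methylation and losing piRNA production move a subfamily unequally, and each mutant had its own wild type. RLTR13A3 was the 1 of 20 members past the threshold, with a difference of 1.04 (SE 0.33, 95% interval 0.35 to 1.73, limma adjusted p = 0.0447). Of all tested subfamilies 7.89% were called higher in this sense and 4.39% lower, and no member was lower. At an unadjusted p under 0.05 there were 4 of 20 members, against 28.1% of all: RLTR13A3, RLTR13B2 (0.91), SRV_MM-int (0.75) and MMERVK9E_I (0.68). MMERVK9E_I entered the test only through its *Dnmt3l* KO values, so its p is no independent support here. On the median-ratio scale 0 members passed, against 4.39% higher and 6.14% lower of all, and RLTR13A3 was at 0.91 with an adjusted p of 0.0921.

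The call of RLTR13A3 stood on a narrow margin. Over the 13 fits that left out 1 library of the 4 groups, the adjusted p ranged from 0.0265 to 0.225 and the difference from 0.90 to 1.18. It stayed below the threshold without *Pld6* wild-type replicate 3, *Pld6* KO replicate 2 or *Pld6* KO replicate 4, and was lost without any of the other 10 libraries, which are both *Dnmt3l* wild-type libraries, the 3 *Dnmt3l* KO libraries, *Pld6* wild-type replicates 1 and 2, and *Pld6* KO replicates 1, 3 and 5. With *Pld6* heterozygous replicate 1 kept out of the fit, 3 members passed, RLTR13A3, RLTR13B2 and SRV_MM-int. The share of all tested subfamilies that passed in these fits is not given here.

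**Figure D4:**
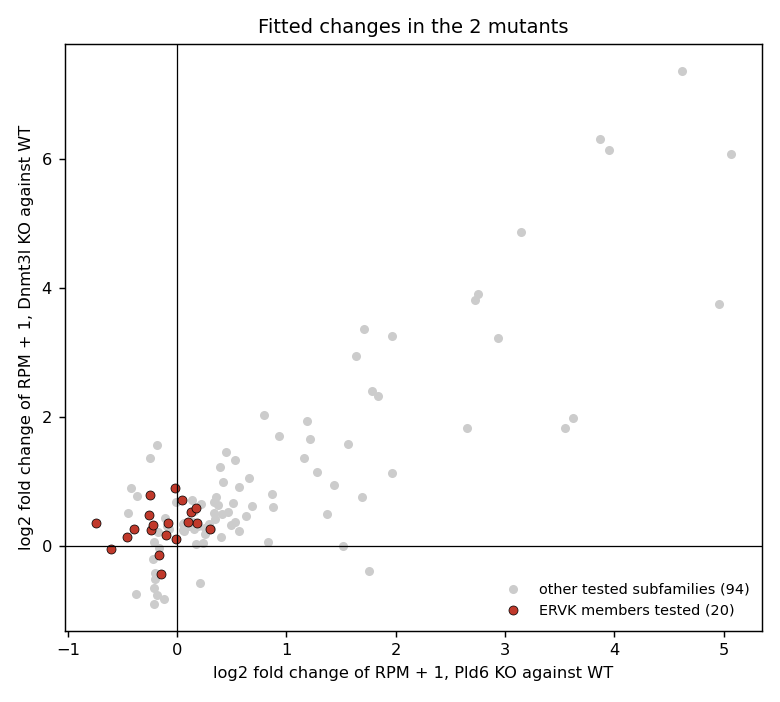
Log2 fold change of RPM + 1 in *Pld6* KO (horizontal axis) and in *Dnmt3l* KO (vertical axis), 1 point per tested subfamily, with the 20 members in red and the other 94 in grey. The members lie between -0.74 and 0.30 horizontally and between -0.42 and 0.90 vertically, while other subfamilies reach 5.07 and 7.37.

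By direction alone, 6 of 20 members were positive in both mutants, 11 were positive in *Dnmt3l* KO and negative in *Pld6* KO, and 3 were negative in both (RLTR13B3, RLTR13D2 and RLTR45-int). No member was positive in *Pld6* KO only. On the median-ratio scale the tally was otherwise, with 0 positive in both, 5 in *Dnmt3l* KO only, 1 in *Pld6* KO only (RLTR13A, at 0.0059) and 14 negative in both. These signs do not account for error, and most of the values were within their intervals of 0. Across the 20 members the log2 fold changes in the 2 mutants had a Pearson's r of 0.27 and a Spearman's rho of 0.35, compared with 0.85 and 0.70 across the other 94 tested subfamilies. These are descriptions over subfamilies measured in the same libraries, and the narrow range of the members bears on them.

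RLTR13 is the group with the most tested members. Of its 22 entries 11 reached the minimum, all of them LTRs, with means from 0.714 RPM (RLTR13D2) to 2.10 RPM (RLTR13B3). Their sum was 22.4 ± 0.795 RPM in *Dnmt3l* KO (SD, n = 3), 15.4 ± 1.51 RPM in the wild type (SD, n = 2) and 15.4 ± 1.99 RPM in heterozygotes (SD, n = 3). The lowest KO library, at 21.6 RPM, was above the highest control library of the line, at 17.3 RPM. In the *Pld6* line the sum was 13.5 ± 2.55 RPM in KO (SD, n = 5) and 15.5 ± 2.76 RPM in the wild type (SD, n = 3), and the libraries overlapped. Divided by the median ratios, the sum was 16.5 ± 1.66 in *Dnmt3l* KO (SD, n = 3) and 17.98 ± 2.21 in its wild type (SD, n = 2), with overlap, so its direction turned with the scaling. On that scale it was 11.3 ± 1.499 in *Pld6* KO (SD, n = 5) and 18.4 ± 1.30 in its wild type (SD, n = 3), without overlap.

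Within RLTR13, 2 of 11 entries, RLTR13A3 and RLTR13B2, passed the threshold in *Dnmt3l* KO, against 38.6% of all tested subfamilies, and 0 did on the median-ratio scale. The intervals of the entries overlap, and differences between entries were not tested. Among those 9, RLTR13A2 had the largest log2 fold change at 0.53 (95% interval -0.074 to 1.13), with 0.915 ± 0.346 RPM in the wild type (SD, n = 2) and 1.75 ± 0.236 RPM in KO (SD, n = 3). RLTR13C2, RLTR13B1, RLTR13D3A1, RLTR13A, RLTR13E and RLTR13B4 were between 0.15 and 0.37. RLTR13B3 had a value of -0.034 (95% interval -0.90 to 0.83), with 3.20, 1.61 and 2.08 RPM in KO around the 2.32 and 2.30 RPM of the wild type, and heterozygotes at 3.63, 2.10 and 3.46 RPM.

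RLTR13C2 was at 3.00, 2.44 and 1.77 RPM in *Dnmt3l* KO and at 1.66 and 1.56 RPM in the wild type, with heterozygotes at 1.89, 1.26 and 1.28 RPM. In the *Pld6* line it was at 2.13, 1.81, 2.72, 1.07 and 2.57 RPM in KO and at 1.29, 1.74 and 1.94 RPM in the wild type. The third *Dnmt3l* KO library was below 1 heterozygote, and in the *Pld6* line the groups overlapped. RLTR13B3 was at 1.21, 1.45, 1.10, 0.65 and 2.96 RPM in *Pld6* KO and at 2.93, 3.33 and 1.73 RPM in the wild type, so that 4 KO libraries were below all wild-type libraries and replicate 5 was not. Its log2 fold change in *Pld6* KO was -0.60 (SE 0.33, limma adjusted p = 0.193).

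The largest *Pld6* KO value of any member was 0.30 for RLTR13A (95% interval -0.12 to 0.72), with 1.21 ± 0.529 RPM in the wild type (SD, n = 3) and 1.69 ± 0.354 RPM in KO (SD, n = 5). RLTR13A was followed by RLTR13C2 with 0.18 and RLTR44-int with 0.17. How reads that match several RLTR13 consensus sequences were assigned is not given in the sources used here, so the split of reads between these entries is uncertain.

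Internal regions and LTRs were represented unequally. Of 11 internal regions 4 reached the minimum, and of 109 LTRs 16 did. In *Dnmt3l* KO the median log2 fold changes were 0.54 for internal regions and 0.30 for LTRs, and in *Pld6* KO they were -0.06 and -0.13. On the median-ratio scale these became -0.046 and -0.15 in *Dnmt3l* KO and -0.46 and -0.36 in *Pld6* KO, so the order in *Pld6* KO depended on the scaling. The difference between internal regions and LTRs was not tested.

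RLTR44 and RLTR45 are listed with both an internal region and LTRs, and only the internal regions reached the minimum. Since RPM is not divided by length, this does not show less LTR RNA per base. The 5 LTR entries RLTR44A, RLTR44B, RLTR44C, RLTR44D and RLTR44E were all below the minimum, with means of 0.152, 0.215, 0.581, 0.134 and 0.475 RPM over the 19 libraries. Their sum was 1.56 ± 0.662 RPM (SD, n = 19). In *Dnmt3l* KO the sum of the 5 LTRs was 2.31 ± 0.22 RPM (SD, n = 3), with a lowest library of 2.09 RPM. In the wild type it was 1.26 ± 0.0707 RPM (SD, n = 2) and in the heterozygotes 1.67 ± 0.637 RPM (SD, n = 3), with a highest library of 2.40 RPM. The LTR sum thus overlapped with the heterozygotes and not with the wild type. In the *Pld6* line the sum was 1.72 ± 0.622 RPM in KO (SD, n = 5) and 1.03 ± 0.114 RPM in the wild type (SD, n = 3). The libraries overlapped, at 0.80 to 2.46 RPM and 0.90 to 1.12 RPM. RLTR44E alone was at 0.27 to 0.96 RPM in *Pld6* KO and at 0.10 to 0.21 RPM in its wild type, without overlap. The mean of RLTR44C was lower in *Pld6* KO, at 0.348 against 0.61 RPM. These changes were not tested. RLTR45 was at 0.258 ± 0.196 RPM (SD, n = 19).

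Heterozygous and wild-type spermatogonia were compared to see whether 1 mutant allele shifts these subfamilies. No member passed the threshold by limma in either line, and no subfamily of the 114 did (0.0% higher and 0.0% lower). In the *Pld6* line 3 members had an unadjusted p under 0.05, against 4.39% of all, and in the *Dnmt3l* line 0 did, against 0.0%. The 3 were RLTR20C2_MM (log2 fold change -0.59), SRV_MM-int (-0.45) and RLTR13B3 (-0.82), all lower in heterozygotes.

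*Pld6* heterozygous replicate 1 stood apart. In it 92 of the 120 subfamilies were listed at 0, against 48 to 62 in the other 18 libraries. Of the 20 tested members 8 were at 0 there and at above 0 in all other libraries. They include RLTR13B2, RLTR13B3, RLTR13B4, RLTR13D2 and RLTR13D3A1. RLTR45-int was at 0.64 RPM in this library, against 4.30 and 4.11 RPM in the other heterozygotes, whereas RLTR44-int was at 31.9 RPM and RLTR13C2, at 3.19 RPM, was higher than in any other library. This library enters each fit through the shared estimate of the spread. Without it 0 members passed in *Pld6* KO, and 5 were higher in *Dnmt3l* KO, where SRV_MM-int joined with an adjusted p of 0.0492 by limma. The share of all tested subfamilies in that fit is not given here.

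The wild types of the lines did not differ in any member by limma, with 0 of 20 past the threshold and 0 at an unadjusted p under 0.05, against 0.877% of all tested subfamilies higher in the *Dnmt3l* line, 0.0% lower and 7.02% at an unadjusted p under 0.05. The largest differences were those of RLTR20C1_MM, at -0.65 (95% interval -1.55 to 0.25), and RLTR45-int, at 0.53 (95% interval -0.22 to 1.27), as *Dnmt3l* wild type minus *Pld6* wild type on the log2 scale. A 2-fold difference lies within both intervals. RLTR45-int was at 7.05 ± 0.58 RPM (SD, n = 2) and 4.597 ± 0.631 RPM (SD, n = 3) in these groups.

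Among the other ERVK subfamilies, IAP and MMERVK10 with RLTR10 had larger fold changes in the same libraries. Of 39 other ERVK subfamilies tested, 24 were higher in *Pld6* KO and 23 in *Dnmt3l* KO, with median log2 fold changes of 0.93 and 1.06. IAP, with 20 tested entries, had medians of 1.70 and 1.62, and MMERVK10 with RLTR10, with 9, had 0.88 and 1.06. ERVB7 with ETn, with 6, had medians of 0.70 and 0.25, and ERVB4, with 4, had -0.31 and 0.85 with 0 past the threshold by limma in either mutant. The 20 members described here had medians of -0.13 and 0.35, so ERVB7 with ETn was below them in *Dnmt3l* KO and ERVB4 in *Pld6* KO. The largest value of a member was 0.90 with 1 added to the RPM and 1.52 with 0.1 added. The latter is that of MMERVK9E_I, which entered the test only through its *Dnmt3l* KO values. The added 1 compresses changes near 1 RPM more than those of abundant subfamilies. These contrasts between lists are descriptions and were not tested.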

How the data were processed

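The data are 19 mRNA-seq libraries of sorted mouse spermatogonia, grouped by the genotype in the sample labels (for *Dnmt3l* the labels, used here, give 2 wild-type and 3 heterozygous mice, the methods 3 and 2). The authors made directional poly(A) libraries, used hisat2 to map single-end reads to consensus sequences of retrotransposons, and deposited RPM values, which are reads scaled to the mapped total. Each library lists 259 subfamilies. The submitters' processing notes also name Trim Galore and mm10. How multi-mapping reads were handled, which reads make up the total and how hisat2 was set are not given in the sources used here. Depth is unknown: 60.9% to 92.4% of a library's low values lay on 1 step, too few to recover whole reads, so no count model or counting interval was used. Consensus sequences were not used here.

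Here limma 3.58.1 (R 4.3.3; eBayes with a mean-variance trend) was run on log2(RPM + 1) over all 19 libraries and 6 groups without covariates, for the 114 subfamilies with at least 1 RPM in at least 2 libraries. Two-sided p-values received Benjamini-Hochberg adjustment over those 114 in each of 6 comparisons, with a threshold of 0.05. Fold changes are ratios of group means of RPM, each plus 1. Replicates are separate mice. For 3 KO against 2 wild-type libraries an exact permutation test cannot give a p below 0.2, so none was used. Summed RPM has no test. The model was run on simulated data with normal noise and changes of 1 or 2 on the log2(RPM + 1) scale. The members' changes in each KO were smaller, so this run does not test calls of that size.

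Named are members past the threshold in any comparison, the 6 tested members with the highest mean RPM, the 3 largest and 3 smallest changes in each KO, the RLTR44 and RLTR45 entries and the tested RLTR13 entries. Other members are named as part of a count or picked after their values were seen. The members and lists were chosen with earlier results of these data known. Alternatives were pseudocounts of 0.1 and 0.5, no filter or a mean of at least 5 RPM, median-ratio rescaling over 33 subfamilies, the compared groups alone, no trend, the replicate number as a block, heterozygous or pooled controls, and each library left out in turn. Leaving out *Pld6* heterozygous replicate 1 was chosen after seeing the data. Tables and figures were made with Python 3.11.15, numpy 2.4.6, pandas 2.3.3 and matplotlib 3.10.9.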

Additional observations from a re-analysis of the deposited data

Results flagged for a closer look

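RLTR13A3 was the 1 member whose change differed between the mutants by limma. The difference, *Dnmt3l* KO minus *Pld6* KO, was 1.04 on the log2 scale, from 0.79 in *Dnmt3l* KO and -0.25 in *Pld6* KO. The 3 *Dnmt3l* KO libraries were all above both wild-type libraries, and 3 of the 5 *Pld6* KO libraries were within the range of their wild type. In the *Pld6* KO group the gap between an extreme library and its neighbour was divided by the range of the 5 libraries. It stayed below the critical value of 0.71 in all 22 sets of values examined. The largest was 0.659, for SRV_MM-int. With 5 libraries this check finds only large departures, and it covered no other group.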

How the results depend on the processing

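The number of subfamilies that reached the minimum, 20, became 37 at 0.5 RPM and 12 at 2 RPM. For *Pld6* KO, testing without a filter on low values gave 1 member higher (ERVB2_1-I_MM) and 1 lower (RLTR46A). ERVB2_1-I_MM was at 0.04 to 0.36 RPM in KO and at 0 in the wild type. RLTR46A was at 0 to 0.11 RPM in KO and at 0.18 to 0.41 RPM in the wild type, so both calls rest on values near 0. Median ratios gave 6 lower. Pooled controls without *Pld6* heterozygous replicate 1 gave 1 lower (RLTR13B4), and leaving out single libraries gave 0 to 1 lower. For *Dnmt3l* KO, the 4 members higher became 2 with a pseudocount of 0.1, 1 with a mean of at least 5 RPM (3 members tested), 0 with median ratios and 0 to 2 with single libraries left out. For the difference between the mutants, the 1 member higher became 0 with a pseudocount of 0.1 or 0.5, without a filter, with a mean of at least 5 RPM, with median ratios and with heterozygous controls, and 0 to 1 with single libraries left out. RLTR13A3 is not tested at a mean of at least 5 RPM, and over the settings its difference ranged from 0.71 to 1.62. The count became 2 with the compared groups alone, and without *Pld6* heterozygous replicate 1 it was 3 in the full fit, 2 with heterozygous controls and 3 with pooled controls. Without a filter 1 member was lower (ERVB2_1-I_MM). The log2 fold change of RLTR44-int in *Dnmt3l* KO was -0.063 with median ratios. The log2 ratio of the sums in *Pld6* KO was -0.57 with median ratios and 0.18 against heterozygotes, with a range of -0.10 to -0.01 when single libraries were left out. In *Dnmt3l* KO it was -0.21 with median ratios, 0.37 without RLTR44-int, 0.57 against heterozygotes, and 0.43 to 0.50 with single libraries left out. The cause of these changes was not tested. MMERVK9E_I is among the 4 for *Dnmt3l* KO and entered the test only through its KO values. Apart from median ratios, the share over all tested subfamilies in each setting is not given here. These counts therefore do not compare the members with other subfamilies.

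With the replicate number as a block, 2 members (MMERVK9E_I and RLTR13A3) were higher in *Dnmt3l* KO and 0 in *Pld6* KO. MMERVK9E_I entered the test only through its *Dnmt3l* KO values. RLTR13A3 stayed past the threshold for the difference. The labels do not say whether equal numbers pair the samples, and the values do not settle it. Of 16 same-number pairs 9 had a correlation above 0.1, with a range from -0.30 to 0.55. Their median was 0.117, against -0.029 for the 44 other pairs. Depth is unknown, so a subfamily at 0 cannot be given an upper limit.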

Other observations

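Below the minimum, several subfamilies reached 1 RPM in 1 library, 9 in all, picked after their values were seen. RLTR50B and RLTR27 were highest in *Pld6* heterozygous replicate 1, at 2.11 and 1.68 RPM, with means over all libraries of 0.182 and 0.384 RPM. ERVB2_1-I_MM was listed at 0 in 12 of 19 libraries.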
